A study of Mus musculus with 6 samples.

Results

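MHC molecules display peptides to T cells, and the genes described here are 35 that build, load, supply or switch on MHC class I and class II in PC B1a cells, the self-renewing B cell subset of the peritoneal cavity. They were chosen by name from what is known of antigen presentation, 18 for class II and 17 for class I, among 36163 gene names on the array. Each gene was read by its probe with the highest mean signal over all arrays, and 45 probes carry the names of the 35 genes in all. All 35 genes were measured well enough to be tested, among 18256 tested genes. The PC B1a cells had been sorted from female C57Bl/6 mice aged 7 weeks, and their total RNA was hybridized to 6 one-colour Agilent arrays. On 3 arrays the cells came from p40-/- CD25-/- mice (knockout), which lack both the p40 subunit that IL-12 and IL-23 share and the alpha chain of the IL-2 receptor, and on 3 from p40-/- CD25+/- mice (control), which lack p40 and carry 1 intact copy of the receptor chain. Loss of p40 is therefore common to both genotypes. The deletions are constitutive, so that all cells of the animal carry them, and a sample was a pool of at least 3 mice. Whether the samples of a genotype came from separate sorts is not given in the sources used here, and p-values measure the spread between these samples.

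MHC class II is a heterodimer of an alpha and a beta chain that binds peptides made in endosomes. The invariant chain, encoded by *Cd74*, escorts it there, cathepsins trim the invariant chain and the antigens, and the DM and DO proteins control the exchange of peptide. B cells transcribe class II constitutively through the coactivator CIITA, which works with the RFX complex and with NF-Y at a shared promoter module. MHC class I is a heavy chain paired with beta-2 microglobulin, loaded in the endoplasmic reticulum with peptides from the proteasome, and its genes answer to the related coactivator NLRC5 and to interferon gamma.

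None of the 35 genes had a limma adjusted p under 0.05, against 7 genes or 0.0383% of all tested genes. With limma p-values left unadjusted, 7 of the 35 passed 0.05 with higher values in knockout samples (*H2-Ab1*, *H2-Eb1*, *Rfx5*, *Nlrc5*, *B2m*, *H2-K1* and *H2-M3*) and 1 with lower values (*Ctsb*), against 11.6% and 13.6% of all tested genes. Among the 17 class I genes, 14 had a fitted change above 0, 6 lay higher on every knockout array than on any control array and none lay lower on all of them. The median log2 difference of the class I genes, knockout minus control, was 0.19. These class I counts were also 14, 6 and 0 after quantile normalization and 13, 6 and 0 with normexp background correction before it, but with normexp and the 75th percentile 8 had a change above 0, 2 lay higher and 3 lower on all knockout arrays. Among the 18 class II genes, 7 had a change above 0, 4 lay higher on all knockout arrays, 1 lower and 13 overlapped, with a median of -0.05. Over all tested genes 39.8% had a change above 0, 14.7% lay higher and 21.6% lower on all knockout arrays, and the median was -0.12. The 2 genes with the largest differences above 0 were *Nlrc5* (2.24-fold) and *Rfx5* (2.06-fold), both regulators of MHC transcription, and they alone of the 35 passed both the 2-fold difference that the methods name and a limma p no higher than 0.05 before adjustment, which 2.26% of all tested genes passed upwards and 1.27% downwards. After quantile normalization *Rfx5* was at 0.84 and no longer passed 2-fold. In RNA of sorted cells, more cells that carry a transcript and more transcript per cell cannot be told apart.

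**Figure D1:**
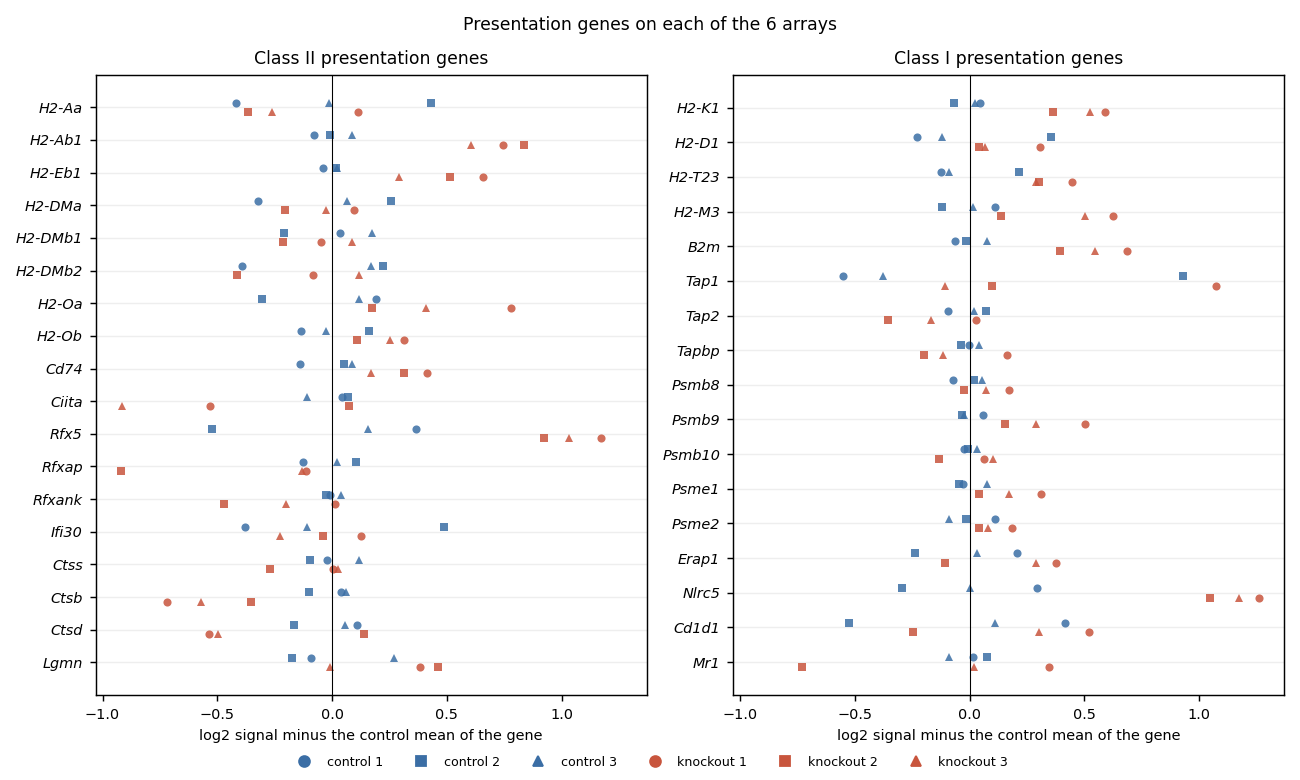
Each point is the log2 signal of a gene on 1 array minus the mean of that gene on the 3 control arrays (x axis, log2 units), with class II genes on the left and class I genes on the right, control arrays in blue and knockout arrays in red. All knockout points of *Nlrc5*, *H2-K1* and *B2m* in the right panel and of *H2-Ab1*, *H2-Eb1* and *Rfx5* in the left panel lie to the right of the control points, and those of *Ctsb* lie to the left.

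The knockout arrays were dimmer than the control arrays, and the 75th percentile of their processed signal was 66.5 to 162 against 252 to 272, while 39.7% to 45.9% of their spots were well above background against 47.2% to 50.6%. Every log2 value given here is relative to that percentile of its own array. After this scaling the difference between genotypes still moved with signal level. Among the 439 tested genes with a mean log2 signal of 8 or more the median difference was 0.37 and 93.8% had a change above 0, whereas among the 1932 genes between 4 and 6 the median was -0.24 and 19.8% had a change above 0. *H2-Ab1*, *H2-Eb1*, *Cd74* and *H2-K1* belong to the brightest band. Quantile normalization, which gives each array the same distribution, brought the medians of these 2 bands to -0.04 and -0.06, and its values are therefore set beside those of the bright genes. Control arrays 1 and 2 lay in row 1 of the slide and the other 4 arrays in row 2, so that control 3 is the only control array in the row of the knockout arrays. Set against control 3 alone, the mean of the knockout arrays differed by 1.16 for *Nlrc5* and 0.89 for *Rfx5*, with control 3 assumed to vary as the knockout arrays do. This fit called 0 of all 18256 genes by adjusted p and 696 higher and 518 lower at an unadjusted 0.05, so it gives values and no check of the calls. *Il2ra*, which encodes the deleted receptor chain, was 1.62, 1.13 and 1.35 on control arrays 1 to 3 and -0.31, -0.59 and 0.86 on the knockout arrays (log2 difference -1.38, limma adjusted p = 0.122). All 6 arrays read this probe as well above background, and whether it lies within the deleted part is not known here. *Il12b*, the p40 gene that neither genotype has intact, was also well above background on all of them, at means of -2.06 on control and -2.08 on knockout arrays, and the same holds of its probe.

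**Figure D2:**
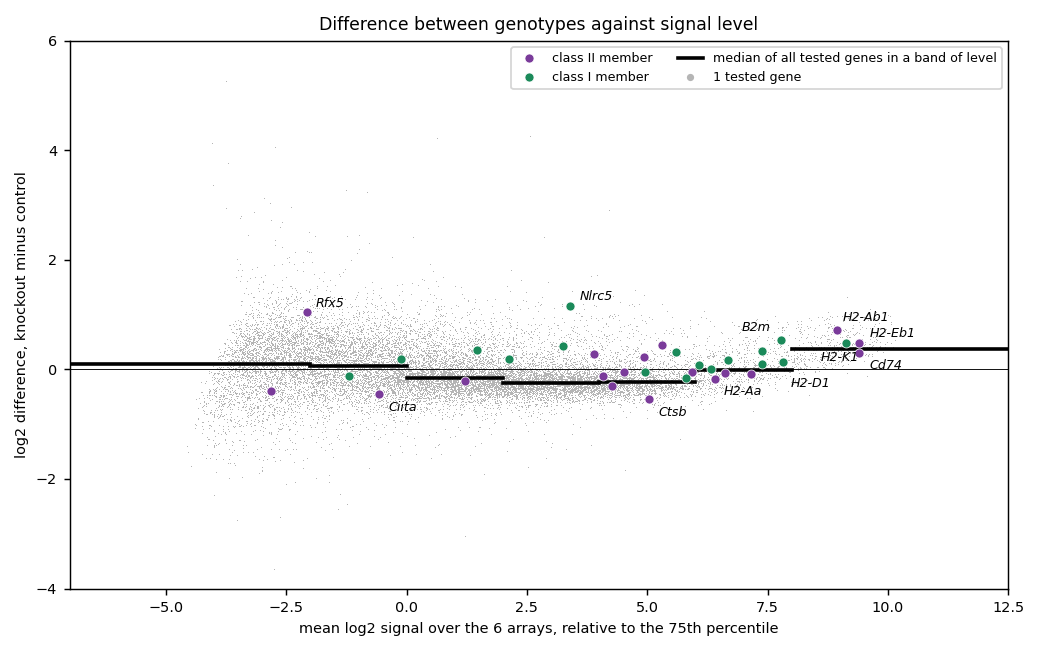
The log2 difference of each tested gene, knockout minus control (y axis), is plotted against its mean log2 signal over the 6 arrays (x axis), with black bars for the median of all tested genes in a band of signal, and class II genes in purple and class I genes in green. The bar of the brightest band stands at 0.37, with *H2-Ab1*, *H2-Eb1* and *H2-K1* above it and *Cd74* below it, while *Nlrc5* lies far above the bar of its band.

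Of the class II chains, the beta chains lay higher on every knockout array and the alpha chain of I-A did not. *H2-Ab1*, which encodes the beta chain of I-A, the class II molecule that C57Bl/6 mice display, was 8.51, 8.58 and 8.67 on control arrays 1, 2 and 3 and 9.33, 9.42 and 9.19 on knockout arrays 1, 2 and 3 (probe at chr17:34406296-34406355, mm9). The lowest knockout array stood above the highest control array. The log2 difference was 0.73 (standard error 0.139, 95% interval 0.40 to 1.05, limma adjusted p = 0.0929). The other probe of *H2-Ab1* gave the same difference, 0.73, but the 2 probes share 51 bases of target with 1 mismatch and are not independent. After quantile normalization the difference was 0.30.

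*H2-Eb1*, the beta chain of I-E, whose alpha chain partner C57Bl/6 mice do not make, was 9.12, 9.17 and 9.18 on control arrays and 9.82, 9.67 and 9.45 on knockout arrays (probe at chr17:34453075-34453134, mm9). The groups did not overlap on this scale and the difference was 0.49 (standard error 0.149, limma adjusted p = 0.132), but it was -0.0026 after quantile normalization. *H2-Aa*, the alpha chain of I-A, was 6.08, 6.92 and 6.48 on control arrays and 6.61, 6.13 and 6.23 on knockout arrays (probe at chr17:34421285-34421344, mm9). Its groups overlapped, with a difference of -0.17 (95% interval -0.75 to 0.41, limma adjusted p = 0.654). Control 2 was the highest control array for *H2-Aa* and 6 further class II genes, and for 5 class I genes that include *H2-D1*, *H2-T23* and *Tap1*, and it was the lowest for 8 class II and 8 class I genes.

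The start regions of *H2-Aa* and *H2-Eb1* are shown because class II genes share a promoter module and these neighbours had differences of opposite sign on this scale, though not after quantile normalization, where *H2-Aa* was at -0.12. Each run covers 250 bases before to 50 bases after the RefSeq start (GRCm38.p6), at chr17:34287774-34288073 on the minus strand for *H2-Aa* and chr17:34305617-34305916 on the plus strand for *H2-Eb1*. Capitals mark CCAAT on either strand (the Y box bound by NF-Y), TGANGTCA in *H2-Aa* (letters of the X2 box), each searched on both strands, and no marked motifs overlap.
H2-Aa: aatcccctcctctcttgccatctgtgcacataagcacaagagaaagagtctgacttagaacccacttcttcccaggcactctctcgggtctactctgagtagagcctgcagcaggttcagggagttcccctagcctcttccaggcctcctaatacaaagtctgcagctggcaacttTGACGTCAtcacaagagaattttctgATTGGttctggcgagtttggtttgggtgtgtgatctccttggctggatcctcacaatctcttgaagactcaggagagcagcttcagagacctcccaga
H2-Eb1: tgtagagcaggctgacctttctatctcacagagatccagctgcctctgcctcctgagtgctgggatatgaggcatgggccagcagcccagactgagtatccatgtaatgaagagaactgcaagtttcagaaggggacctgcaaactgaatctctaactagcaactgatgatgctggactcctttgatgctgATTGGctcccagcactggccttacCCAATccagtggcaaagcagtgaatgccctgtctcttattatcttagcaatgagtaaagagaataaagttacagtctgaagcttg

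In *H2-Aa* the X2 letters stand at -74 to -67 and the inverted CCAAT at -48 to -44 from the start, and in *H2-Eb1* the inverted CCAAT stands at -59 to -55, with a CCAAT in the other orientation at -35 to -31. Start regions were at hand for 13 of the 18 class II genes, and 10 of these hold CCAAT and 2 the X2 letters. Of the 9 chain, DM, DO and invariant chain genes 7 had an entry, and all 7 hold the inverted CCAAT, between -198 and -39. CCAAT is in 37.4% and the X2 letters are in 8.83% of all 32851 start regions of this length. *H2-Ab1*, *Cd74*, *Ciita*, *Rfxap* and *Ctsb* had no entry. A match describes the letters and not a bound site.

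*Cd74*, the invariant chain, was 9.11, 9.30 and 9.34 on control arrays and 9.66, 9.57 and 9.42 on knockout arrays. All knockout values lay above all control values, with a difference of 0.30 (95% interval -0.04 to 0.64, limma adjusted p = 0.235), and the sign turned to -0.20 after quantile normalization. Of the peptide exchange genes, *H2-Oa*, the alpha chain of the DO inhibitor, had a difference of 0.45 with knockout 2 inside the control range (limma adjusted p = 0.227), and its partner *H2-Ob* had 0.22, with 0.17 from another tested probe and 0.73 from one too dim to test. The genes of DM, which DO holds back, differed by -0.05 for *H2-DMa*, -0.06 for *H2-DMb1* and -0.13 for *H2-DMb2*. All 5 had overlapping groups, and the 3 DM genes changed sign under at least 1 other scaling.

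Among the endosomal enzymes, *Ctsb* was the 1 class II gene that lay lower on every knockout array. Cathepsin B, which it encodes, is a lysosomal cysteine protease. It was 5.36, 5.22 and 5.38 on control arrays and 4.60, 4.96 and 4.74 on knockout arrays (probe at chr14:63761906-63761965, mm9). The difference was -0.55 (standard error 0.152, limma adjusted p = 0.123), -0.39 after quantile normalization, and below 0 under every alternative that was run. *Ctss*, cathepsin S, the protease that finishes cutting the invariant chain in B cells, differed by -0.08. *Ctsd* differed by -0.30 (-0.37 by its other probe), the thiol reductase gene *Ifi30* by -0.05, and *Lgmn*, the asparaginyl endopeptidase, by 0.28. Their groups overlapped and their limma adjusted p ranged from 0.366 to 0.906.

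The class II regulators differed among themselves in direction. *Rfx5*, the DNA-binding subunit of RFX, was -2.23, -3.12 and -2.45 on control arrays and -1.43, -1.68 and -1.57 on knockout arrays (probe at chr3:94763103-94763162, mm9). Every knockout value lay above every control value, and this dim probe stood well above background on each array. The difference was 1.04 (standard error 0.241, limma adjusted p = 0.106). It was 0.84 after quantile normalization, below 2-fold, and between 0.30 and 1.13 under the other settings, leaving out of single arrays aside. Its other probe, at chr3:94765414-94765473 (mm9), gave 0.74 with overlapping groups (limma adjusted p = 0.251) and was well above background on 2 of the 3 knockout arrays. *Rfxap* and *Rfxank*, the other subunits of RFX, had differences of -0.39 and -0.22 with overlapping groups. *Rfxap* was well above background on 2 of the 3 knockout arrays.

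*Ciita*, the class II coactivator, was -0.30, -0.27 and -0.45 on control arrays and -0.87, -0.26 and -1.26 on knockout arrays. Knockout 2 lay just above the control range and the other knockout arrays below it, and the difference was -0.46 (95% interval -1.05 to 0.14, limma adjusted p = 0.276). The only probe of *Ciita* is of low sequence complexity. How much of this signal comes from *Ciita* transcripts was not tested.

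The class I regulator *Nlrc5* had the largest difference of the 35 genes. It was 3.11, 2.52 and 2.82 on control arrays and 4.08, 3.87 and 3.99 on knockout arrays, so that the groups stood apart by more than the spread within either. The difference was 1.16 (standard error 0.184, 95% interval 0.73 to 1.59, limma adjusted p = 0.0771), and it was 1.37 after quantile normalization and between 0.81 and 1.41 under the other settings, leaving out of single arrays aside. Leaving out any 1 array gave 1.01 to 1.31. Its other probe, nearer the start of the gene, read -2.40, -2.69 and -2.52 on control arrays and -0.76, -0.53 and -1.35 on knockout arrays, again without overlap, with a difference of 1.66 (limma adjusted p = 0.0729 over all probes). Both probes are shown because they read separate stretches of the transcript, at chr8:97051105-97051164 and chr8:97030478-97030624 (mm9), the latter with its 60 bases spread over 147 bases of the genome.
Nlrc5 probe 1: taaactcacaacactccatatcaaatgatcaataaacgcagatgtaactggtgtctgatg
Nlrc5 probe 2: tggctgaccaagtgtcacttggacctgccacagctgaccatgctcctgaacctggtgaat

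**Figure D3:**
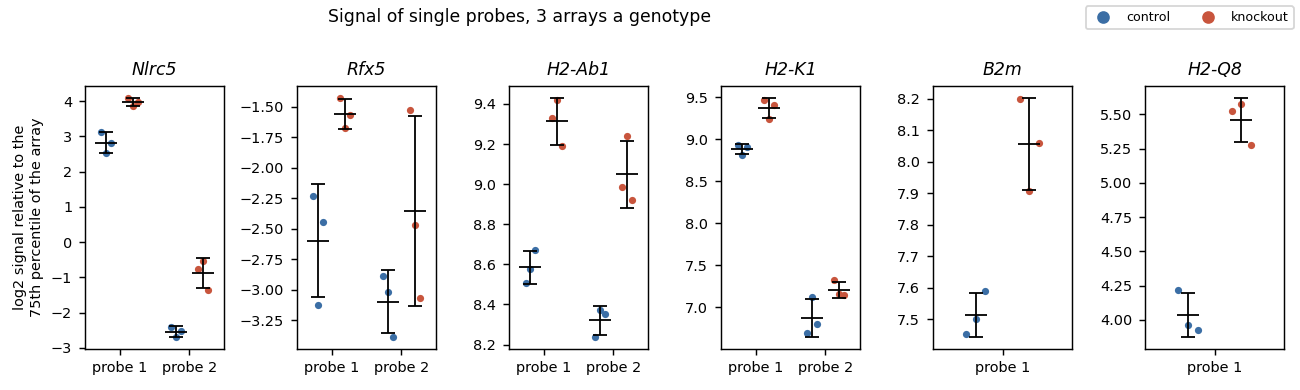
Each panel plots the log2 signal of 1 gene relative to the 75th percentile of the array (y axis, its own range in each panel), with 3 control arrays in blue, 3 knockout arrays in red, and the mean with the SD in black. Both probes of *Nlrc5*, *H2-Ab1* and *H2-K1* separate the genotypes, and for *Rfx5* only probe 1 does.

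All 5 of the class I chains had a difference above 0, and 4 of them lay higher on every knockout array, as 14.7% of all tested genes did, with a median of 0.42. After quantile normalization 4 were above 0, 2 lay higher on every knockout array and the median was 0.24, and with normexp before it the median was 0.26. With normexp and the 75th percentile 4 were above 0, none stood apart and the median was 0.12. *B2m*, the light chain that all class I molecules need, was 7.45, 7.50 and 7.59 on control arrays and 8.20, 7.91 and 8.06 on knockout arrays (probe at chr2:121978401-121978460, mm9). Its difference of 0.54 (standard error 0.143, limma adjusted p = 0.121) was 0.39 after quantile normalization and above 0 under every alternative. The median of all 710 genes with a signal between 6 and 8, where *B2m* lies near the upper edge, was -0.02. In the next band, of 8 or more, it was 0.37. *H2-K1*, the classical K heavy chain, was 8.92, 8.81 and 8.90 on control arrays and 9.47, 9.24 and 9.40 on knockout arrays, each value a mean of 10 spots. Its difference of 0.49 (standard error 0.137, limma adjusted p = 0.123) shrank to 0.04 after quantile normalization.

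*H2-D1*, the classical D heavy chain, was 7.52, 8.11 and 7.63 on control arrays and 8.06, 7.79 and 7.82 on knockout arrays. The groups overlapped and the difference was 0.14 (95% interval -0.32 to 0.59, limma adjusted p = 0.646). *H2-T23*, which encodes the nonclassical molecule Qa-1, was 7.08, 7.42 and 7.11 on control and 7.65, 7.51 and 7.49 on knockout arrays, a difference of 0.34 without overlap (limma adjusted p = 0.209). That difference was between 0.03 and 0.44 under the other settings, leaving out of single arrays aside. *H2-M3*, which presents formylated bacterial peptides, was 3.15, 2.92 and 3.06 on control and 3.67, 3.18 and 3.55 on knockout arrays, a difference of 0.42 (limma adjusted p = 0.191) that was 0.61 after quantile normalization and 0.12 with normexp and the 75th percentile.

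Class I genes resemble each other closely, and their probes are not all specific. The brightest *H2-K1* probe shares no run longer than 7 bases with the other tested class I probes, whereas its other probe, at chr17:34133984-34134043 (mm9), shares a run of 29 bases, in capitals, with that of *H2-T23* at chr17:36167338-36167574 (mm9), and both are shown for that reason.
H2-K1 probe 2: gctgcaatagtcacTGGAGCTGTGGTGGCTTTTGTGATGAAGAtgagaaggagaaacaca
H2-T23 probe: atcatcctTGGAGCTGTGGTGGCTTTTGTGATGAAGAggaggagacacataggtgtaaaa
These probes gave differences of 0.33 and 0.34, and within each genotype they put the arrays in the same order, with control 2 and knockout 1 highest. That order is not particular to this pair. The probes of *H2-K2*, *H2-Q5* and *H2-Q7* gave it too, and their longest runs shared with these probes are 5 to 9 bases. A transcript of *H2-K1* or *H2-T23* could add to the signal of both probes, and how far it did was not tested.

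The start regions of *B2m* and *H2-K1* are shown because class I genes answer to interferon and NF-kB and letters of such elements occur in them. Capitals mark CCAAT on either strand, GAAANNGAA in *B2m* (letters of the interferon response element), and GGGNNTTCC (an NF-kB site) and TGANGTCA in *H2-K1*, each searched on both strands, from RefSeq (GRCm38.p6) at chr2:122147437-122147736 on the plus strand and, for the first *H2-K1* start listed, chr17:34000298-34000597 on the minus strand.
B2m: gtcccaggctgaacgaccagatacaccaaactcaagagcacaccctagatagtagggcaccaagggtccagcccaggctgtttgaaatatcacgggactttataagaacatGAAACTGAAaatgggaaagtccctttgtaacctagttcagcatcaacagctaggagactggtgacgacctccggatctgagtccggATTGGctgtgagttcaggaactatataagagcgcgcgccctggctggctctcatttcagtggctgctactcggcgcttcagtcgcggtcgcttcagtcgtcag
H2-K1: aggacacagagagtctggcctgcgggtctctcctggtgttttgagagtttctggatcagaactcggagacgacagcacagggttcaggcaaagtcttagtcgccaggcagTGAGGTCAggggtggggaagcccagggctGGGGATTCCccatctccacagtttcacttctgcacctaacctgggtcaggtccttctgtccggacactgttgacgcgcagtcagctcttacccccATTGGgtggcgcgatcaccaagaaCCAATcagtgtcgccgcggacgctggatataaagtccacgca
The GAAANNGAA letters stand at -139 to -131 in *B2m*, and the NF-kB letters at -111 to -103 in *H2-K1*. Of the 14 class I genes with a start region at hand, 4 hold the interferon letters (*B2m*, *H2-T23*, *Erap1* and *Psme1*), against 8.56% of all start regions, 2 hold the NF-kB letters, against 5.82%, 2 hold TTCNNNGAA (letters of the interferon gamma element GAS), against 8.3%, and 8 hold CCAAT. Of the 13 class II genes with a start region at hand, 1 holds the interferon letters, 3 the NF-kB letters and 1 the GAS letters. These counts are of genes with the letters in any of their start regions, whereas the percentages are of single start regions. The 27 matched members have 31 start regions. *Nlrc5*, *Tap2* and *Cd1d1* had no entry.

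The genes that supply and load class I peptides differed little. Of 9 such genes, 7 had a difference above 0 with a median of 0.10, and on this scale *Psmb9* alone lay higher on every knockout array, against 14.7% of all tested genes. The number that did was 3 after quantile normalization, with or without normexp, and 4 with median scaling, whereas with normexp and the 75th percentile 2 of the 9 were above 0, none lay higher and 3 lay lower on all knockout arrays. *Psmb9*, a catalytic subunit of the immunoproteasome, was 5.50, 5.41 and 5.42 on control arrays and 5.95, 5.60 and 5.73 on knockout arrays, a difference of 0.31 (95% interval -0.03 to 0.66, limma adjusted p = 0.225). The other immunoproteasome subunits *Psmb8* and *Psmb10* differed by 0.07 and 0.01. The proteasome activator genes *Psme1* and *Psme2* differed by 0.17 and 0.10 (-0.01 by another probe of *Psme2*, while the remaining probe under that name is annotated to a pseudogene), the trimming peptidase *Erap1* by 0.19, and *Tap2* and *Tapbp*, a peptide transporter subunit and tapasin, by -0.17 and -0.05. All of these had overlapping groups.

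*Tap1*, the other transporter subunit, had the widest spread of the 35 genes. It was 0.72, 2.21 and 0.90 on control arrays and 2.35, 1.37 and 1.17 on knockout arrays, so that 1 array of each genotype stood high. The 10 spots of its probe had an SD of only 0.0283 to 0.0575 within an array, which covers spot noise and not labelling or hybridization. The difference was 0.35 (standard error 0.459, limma adjusted p = 0.617), and it was -0.0039 without knockout 1. Of the class I-like genes, *Cd1d1*, which presents lipids, differed by 0.19 and *Mr1*, which presents vitamin B metabolites, by -0.12, both with overlapping groups. The dimmer probe of *Cd1d1* gave 0.56 without overlap (limma adjusted p = 0.149 over all probes).

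The 3 knockout arrays did not carry the class I pattern alike. Knockout 1 was the highest knockout array for 16 of the 17 class I genes and knockout 2, the dimmest array, was the lowest for 15. The median distance of the 17 genes from their control means was 0.38 on knockout 1, 0.04 on knockout 2 and 0.17 on knockout 3, with 17, 10 and 14 of them above the control mean. For class II the medians were 0.11, 0.02 and 0.01. The class I median was 0.06 without knockout 1 and 0.33 without knockout 2.

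**Figure D4:**
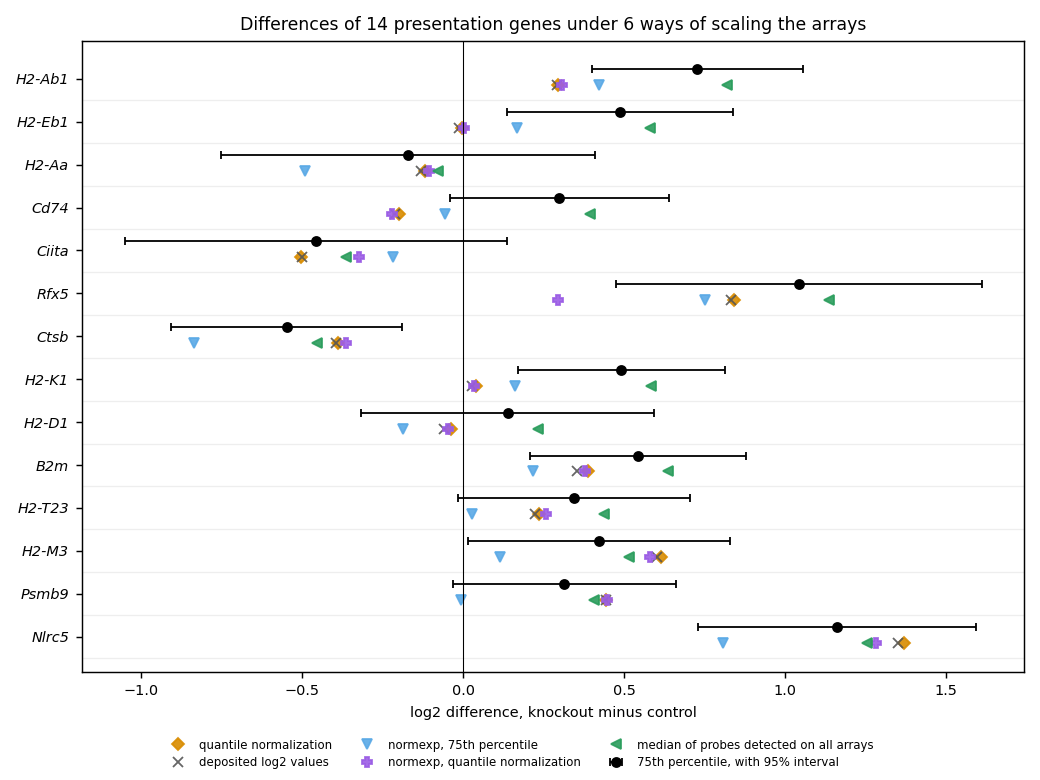
For 14 genes, the black point with its bar is the log2 difference, knockout minus control (x axis), and its 95% interval with the arrays scaled by their 75th percentile, and the coloured marks are the differences under 5 other ways of scaling or background correction. The marks of *Nlrc5*, *Rfx5*, *H2-Ab1*, *B2m* and *H2-M3* all lie above 0 and those of *Ctsb* and *Ciita* below it, whereas those of *H2-Eb1*, *Cd74*, *H2-D1* and *Psmb9* fall on both sides.

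Further genes of the pathway, 59 taken from textbook knowledge, were read in the same fit, and 49 were tested. None had a limma adjusted p under 0.05, 7 lay higher and 8 lower on all knockout arrays, no larger a share than the 14.7% and 21.6% of all tested genes, and the median difference was -0.14. Of 23 further class I genes, 14 had a difference above 0, against 39.8% of all tested genes, with a median of 0.19. The 1 gene past the 2-fold thresholds was *H2-Q8*, a nonclassical heavy chain of the Q region, at 4.22, 3.96 and 3.92 on control arrays and 5.53, 5.58 and 5.28 on knockout arrays. Its difference was 1.43 (standard error 0.158, limma adjusted p = 0.0538), it was 1.59 after quantile normalization with a limma adjusted p of 0.0451, and the adjusted p ranged from 0.0015 to 0.649 over all alternatives. Its probe shares no run longer than 6 bases with the other tested class I probes. The other Q and T region genes had differences of 0.17 (*H2-Q2*) to 0.44 (*H2-T10*). The chaperone genes *Calr*, *Canx*, *Hspa5* and *Pdia3* had differences of -0.32, -0.44, -0.49 and -0.31, and the constitutive proteasome subunits *Psmb5*, *Psmb6* and *Psmb7*, which the immunoproteasome subunits replace, had -0.30, -0.30 and -0.20.

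Of 14 further class II genes, 12 had a difference below 0 and 2 above it, with a median of -0.22. Over all tested genes 39.8% had a difference above 0. On all knockout arrays 5 of the 14 lay lower and 1 higher, against 21.6% and 14.7% of all tested genes. The subunits of NF-Y, which binds the CCAAT letters shown above, were among those that lay lower. The median of all tested genes was -0.16 in the signal band of *Nfya* and *Nfyb* and -0.24 in that of *Nfyc*. *Nfya* was 0.97, 1.44 and 1.23 on control and 0.38, 0.17 and 0.60 on knockout arrays, a difference of -0.83 (limma adjusted p = 0.105). *Nfyb* had -0.71 and *Nfyc* -0.33, and after quantile normalization the 3 genes had -0.77, -0.69 and -0.14. *Cst3*, which encodes the cathepsin inhibitor cystatin C, had -0.75 without overlap (limma adjusted p = 0.0956). *H2-Eb2*, a further class II beta chain gene, had 0.80 without overlap (limma adjusted p = 0.13). In the interferon gamma list of 12 genes, *Irf8* had 0.69 without overlap (limma adjusted p = 0.0969), whereas *Irf1*, *Jak1*, *Ifngr1* and *Ifngr2* had 0.05, -0.04, -0.14 and -0.05.

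Markers of the labelled cell type were present, with 9 of 10 B cell genes, *Cd79a* and *Ms4a1* among them, well above background on every array. Of these *Pax5* (0.57) and *Cd79b* (0.28) lay higher and *Ebf1* (-0.46) lower on all knockout arrays. All 8 genes of a B1a list were also well above background throughout, with *Cd5* at 3.54 to 3.70 on control and 3.05 to 3.60 on knockout arrays. In that list *Itgam* (0.79) and *Bhlhe41* (0.55) lay higher and *Ctla4* (-0.44) lower on all knockout arrays. Plasma cells, which antigen-stimulated B cells become, had 6 list genes on the array and 4 well above background throughout, and their summed linear signal, relative to the 75th percentile, did not overlap, at 68.6 to 75.6 on control and 46.7 to 59.5 on knockout arrays. That sum came mostly from *Xbp1* and *Irf4*, which lie in the signal band of 4 to 6, where the median of all tested genes was -0.24. *Xbp1* (-0.52) and *Igj* (-1.92) lay lower on all knockout arrays, *Irf4* had -0.30 with overlap, and no gene of the list lay higher on all of them. The chaperone genes *Calr*, *Canx*, *Hspa5* and *Pdia3*, abundant in secretory cells, had differences below 0 as given above, but only the groups of *Canx* did not overlap. After quantile normalization they had -0.12, -0.27, -0.42 and -0.12, and before it the median of all tested genes was -0.24 in the signal bands of *Calr*, *Canx* and *Pdia3* and -0.02 in that of *Hspa5*.

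Macrophages and dendritic cells also make class II. Of 16 macrophage markers on the array, 13 were well above background throughout, and the list's sum was 40.5 to 92.6 on control and 34.3 to 75.6 on knockout arrays. These ranges overlap, and the 2 arrays with the highest sums were control 1 and knockout 2. Within the list *Mrc1* had a difference of -1.08 without overlap (limma adjusted p = 0.11), and *Lyz2* and *Lyz1* had -1.08 and -0.90 with overlap (limma adjusted p of 0.164 and 0.18), while *Marco* had 0.92 with overlap and *C1qa*, *C1qb*, *C1qc*, *Cd14* and *Emr1* had -0.24 to -0.02 with overlap. *Ctsb*, *Ctsd* and *Cst3* are also expressed by macrophages. Control 1, with the highest control sum, had the highest control value of *Ctsd*. Control 3, with the lowest control sum, had that of *Cst3* and, at 5.38 against 5.36 on control 1, of *Ctsb*. Knockout 2, with the highest knockout sum, had the highest knockout values of *Ctsb* (4.96) and *Ctsd* (4.56), but not of *Cst3*. Of 10 dendritic cell markers 3 were well above background throughout, with a sum of 92.1 to 98.5 on control and 123 to 167 on knockout arrays that came almost wholly from *Siglech* (0.50) and *Ccr7* (0.65), both higher on all knockout arrays. The other, *Batf3*, lay lower on all of them (-1.42, limma adjusted p = 0.141). *Clec9a* and *Xcr1*, which mark a subset of conventional dendritic cells, were well above background on no array and *Flt3* on 1. *Itgax* was so on 2 control arrays and 1 knockout array, and *Zbtb46* and *Itgae* each on 1 knockout array. *Cd209a* was so on 2 control arrays and no knockout array, and lay lower on all knockout arrays (-1.74, too dim to test). Of 11 T cell markers 7 were well above background throughout, with a sum of 264 to 274 on control and 212 to 295 on knockout arrays, mostly from *Cd2*. Of the dimmer T cell markers above background throughout, *Thy1* (2.13, limma adjusted p = 0.135) and *Cd3e* (0.60, limma adjusted p = 0.127) lay higher on all knockout arrays, and *Cd3d* had 1.41 with overlap and *Cd3g* -0.28. The part of such cells in the class I and class II differences was not tested.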

How the data were processed

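Total RNA of sorted PC B1a cells was hybridized to 6 Agilent arrays, 3 for each genotype, which lay on 1 slide and went through 1 scan. Per array, the authors deposited the spot intensity from Agilent Feature Extraction 10.7.1.1 (named in the submitters' processing notes), background subtracted but not scaled across arrays. A deposited table also holds log2 values, whose sorted values are the same for every array, which makes them quantile normalized. No scaling is named in the methods. Gene names and mm9 coordinates are those of the array files.

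Log2 of the processed signal was taken for the 59305 non-control spots, and each array was centred on its own 75th percentile. Outlier spots (163 to 251 per array) were dropped and repeat spots averaged. Tests covered 24757 of 55681 probes, those well above background on all arrays of a genotype with at least 2 values in each. The brightest tested probe stood for its gene. Limma 3.58.1 (lmFit, eBayes, R 4.3.3) compared the genotypes on all tested genes, without covariates and with Benjamini-Hochberg adjustment over all of them (threshold 0.05). Precision is limited by having 3 arrays a genotype, for which an exact permutation test cannot go below 0.1.

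The members and gene lists were chosen with earlier results of these data known. All members are named by role, and values on each array are given for those past a threshold, those without overlap that changed at least 1.3-fold, and the central genes of each class. RefSeq start regions (GRCm38.p6) matched 27 of the 35 members by symbol. A simulation built on the arrays' own levels and spread, with known changes, was used to check the fits. Other scalings, background corrections, filters, fits, a replicate block and the omission of each array were tried as alternatives. The slide row as a block and the comparison within slide row 2 were added after seeing the data. Some genes and 1 probe sequence are not reported here.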

Additional observations from a re-analysis of the deposited data

How the results depend on the processing

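Of the 35 genes 14 kept their direction under every alternative, *Nlrc5*, *Rfx5*, *H2-Ab1*, *B2m*, *H2-K1*, *H2-T23*, *H2-M3*, *H2-Oa* and *Ctsb* among them. The cause of the shifts below was not tested. After quantile normalization *Cd74* -0.20, *H2-D1* -0.038, *H2-DMa* 0.15, *H2-DMb2* 0.077, *H2-Eb1* -0.0026, *Ifi30* 0.088 and *Tapbp* 0.15 turned sign, with the deposited log2 values *Cd74* -0.21, *H2-D1* -0.061, *H2-DMa* 0.13, *H2-DMb2* 0.057, *H2-Eb1* -0.012, *Ifi30* 0.067, *Psme2* -0.0055 and *Tapbp* 0.13, and with normexp and quantile normalization *Cd74* -0.22, *H2-D1* -0.047, *H2-DMa* 0.12, *H2-DMb2* 0.100, *Ifi30* 0.081, *Psme2* -0.0049 and *Tapbp* 0.16. Normexp with the 75th percentile turned *Cd1d1* -0.037, *Cd74* -0.057, *H2-D1* -0.19, *H2-Ob* -0.072, *Lgmn* -0.034, *Mr1* 0.20, *Psmb10* -0.30, *Psmb8* -0.27, *Psmb9* -0.0058, *Psme1* -0.16, *Psme2* -0.25 and *Rfxap* 0.42. Median scaling (over probes that every array detected) turned *Ctss* 0.014, *H2-DMa* 0.047, *H2-DMb1* 0.033, *Ifi30* 0.046 and *Tapbp* 0.042, array weights *H2-DMa* 0.0044, *Ifi30* 0.043, *Mr1* 0.18 and *Tapbp* 0.035, and the slide row as a block, like the comparison within slide row 2, *Ifi30* 0.062 and *Psmb10* -0.022.

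The adjusted p called 3 class II and 3 class I genes with a trend and robust estimation and 3 and 3 with array weights. These were *H2-Ab1*, *Ctsb*, *B2m*, *H2-K1* and *Nlrc5* in both, with *H2-Eb1* in the former and *Rfx5* in the latter. Over all 18256 genes these fits called 501 higher and 253 lower, and 811 higher and 634 lower. Normexp with the 75th percentile called 3 class II genes and 1 class I gene, in a fit that called 2997 of all genes as higher and 3489 as lower, and normexp with quantile normalization 1 class I gene, *Nlrc5*. No class II gene passed the 2-fold thresholds (0) after quantile normalization, with the deposited values, either normexp setting, the mean of the probes, or the slide row in the fit or within row 2, and no class I gene (0) did with normexp and the 75th percentile. The class II median was -0.28 with normexp and the 75th percentile, 0.040 with median scaling and -0.14 with the slide row in the fit or within row 2, and the class I median was -0.0058 with normexp and the 75th percentile, 0.30 with array weights and 0.28 with median scaling.

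For the further pathway genes the adjusted p called 1 (*H2-Q8*) with quantile normalization, with the deposited values, normexp and quantile normalization, each probe on its own or the filter on all 6 arrays, 4 with a trend, 9 with array weights and 19 with normexp and the 75th percentile. The 2-fold thresholds passed 2 with quantile normalization, the deposited values, normexp with the 75th percentile and the slide row settings, 3 with array weights and 4 with no filter on dim probes. Their median was 0.025, 0.010, 0.040, -0.31, -0.044, -0.049 and -0.054 with quantile normalization, the deposited values, normexp and quantile normalization, normexp and the 75th percentile, median scaling, no filter and the mean of the probes.

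Leaving out 1 array at a time gave class II medians of -0.15 to 0.062, class I medians of 0.060 to 0.33 and medians of the further genes of -0.12 to -0.064. The adjusted p then called 0 class II and 0 class I genes and 0 to 1 further genes, and the 2-fold thresholds passed 0 to 1, 1 and 1 to 3. Without control 2 or knockout 1, *Rfx5* no longer passed 2-fold, at 0.78 and 0.98. The members that turned sign ranged over *Cd1d1* -0.071 to 0.41, *Ctss* -0.13 to 0.015, *H2-Aa* -0.38 to 0.044, *H2-DMa* -0.21 to 0.081, *H2-DMb1* -0.17 to 0.027, *H2-DMb2* -0.32 to 0.017, *Ifi30* -0.24 to 0.20, *Mr1* -0.36 to 0.18, *Psmb10* -0.036 to 0.081, *Tap1* -0.0039 to 0.82 and *Tapbp* -0.16 to 0.023.

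The methods' t-test called 0 members after adjustment, and at the 2-fold thresholds it passed *Nlrc5* and *Rfx5* as limma did. Whether the replicate numbers pair the samples cannot be told from these values. Same-numbered arrays correlated at 0.19, 0.06 and 0.09 in their deviations and the other pairs at -0.19 to 0.07. Knockout 2 correlated best with control 3. With the replicate number as a block, the class II and class I medians were -0.05 and 0.19, 0 members were called by adjusted p and 4 of all genes were, against 7 without it, and at an unadjusted 0.05 the 7 higher members became 8 with *H2-Oa*. Knockout arrays had weaker signal, and probes of *Rfx5*, *Rfxap* and *H2-Ob* were not well above background on all of them.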
